A study of Mus musculus with 7 samples.

Results

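Cytokine receptors and the JAK-STAT pathway behind them were examined as 42 genes, of 21938 protein-coding genes annotated outside the mitochondrial genome, for chromatin sites of the transcription factor GATA2 and of a pathogenic GATA2 variant. The genes are 28 receptor subunits, 4 Janus kinases (JAK), 6 STAT factors and 4 inhibitors of the suppressor of cytokine signalling (SOCS) family. They were taken from a fixed list by name, and all 42 matched 1 gene each in the GENCODE M21 annotation of the mouse genome (mm10). A peak was linked to a gene when its summit, the base with most reads, lay within 100 kb of the gene start. The rule used no measured value of the peaks.

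The series mapped where GATA2 sits on chromatin by CUT&Tag, in which an antibody directs a transposase that cuts and tags the DNA nearby. Both groups used here were hi-77-/- cells, mouse fetal liver hematopoietic progenitors immortalized with estrogen-regulated HoxB8, grown with β-estradiol and lacking the -77 enhancer of Gata2 on both alleles, so that their own GATA2 is low. The GATA2 group was infected for 3 days with a retrovirus expressing HA-tagged wild-type GATA2, and the 9aa-Ins group with a retrovirus expressing HA-tagged 9aa-Ins, GATA2 with a 9-amino-acid insertion between its zinc fingers. GFP+ cells were sorted, and an antibody to the HA tag was used, which does not see the cells' own GATA2. Of the 7 libraries of the series, 4 were made with the anti-HA antibody, 2 per group, and the 2 of each group came from cells that had been pooled and then split. The libraries of a group had been merged before deposit into a single peak list, so the values below have no replicate spread and no test between groups was made. The factors were expressed from retroviruses in an immortalized line, and peaks were given without expression values.

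Cytokine receptors are assemblies of subunits without kinase activity of their own. Those for IL-1, IL-18 and IL-17 signal through adaptor proteins, and most others through Janus kinases. These kinases, held on the receptor tails, are activated when the cytokine joins the subunits, and they phosphorylate the receptor and the STAT factors docked on it. STAT factors then enter the nucleus and activate genes that include Cish and other SOCS genes, whose products shut the receptor down. In blood progenitors these receptors bias survival and lineage choice, and GATA2 is a zinc finger factor that these progenitors need and that binds the motif WGATAR, where W stands for A or T and R for A or G, so that the words searched were AGATAA and AGATAG and also TGATAA and TGATAG.

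Genome-wide there were 6254 peaks for GATA2 and 1079 for 9aa-Ins. The number of reads stacked at a summit, the pileup, was recovered from the fold enrichment of each peak. No peak of either list had fewer than 9 reads, and the median peak had 15 with GATA2 and 13 with 9aa-Ins. Enrichment had been computed against a flat background of 0.464 reads (GATA2) or 0.455 reads (9aa-Ins). Read totals were not given in the files.

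GATA2 peaks lay within 100 kb of 33 of the 42 genes (78.6%, Wilson 95% CI 64.1 to 88.3), against 52.1% of all protein-coding genes. 9aa-Ins peaks lay within 100 kb of 6 of the 42 (14.3%, 95% CI 6.72 to 27.8), against 18.6% of all. All 6 genes with a 9aa-Ins peak (Il27ra, Il12rb1, Il17ra, Tyk2, Socs1 and Cish) also had a GATA2 peak, and 9 genes had neither. Close to the gene start the GATA2 share was near the background: 10 of the 42 genes (23.8%, 95% CI 13.5 to 38.5) had a GATA2 peak within 10 kb, against 21.7% of all genes, and 2 (4.76%, 95% CI 1.32 to 15.8) had a 9aa-Ins peak, against 5.53%. At 50 kb the counts were 22 genes for GATA2 (52.4%, against 39.6% of all) and 5 for 9aa-Ins (11.9%, the same as over all genes). The intervals cover counting error over genes only, and neighbouring genes can share a peak.

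**Figure D1:**
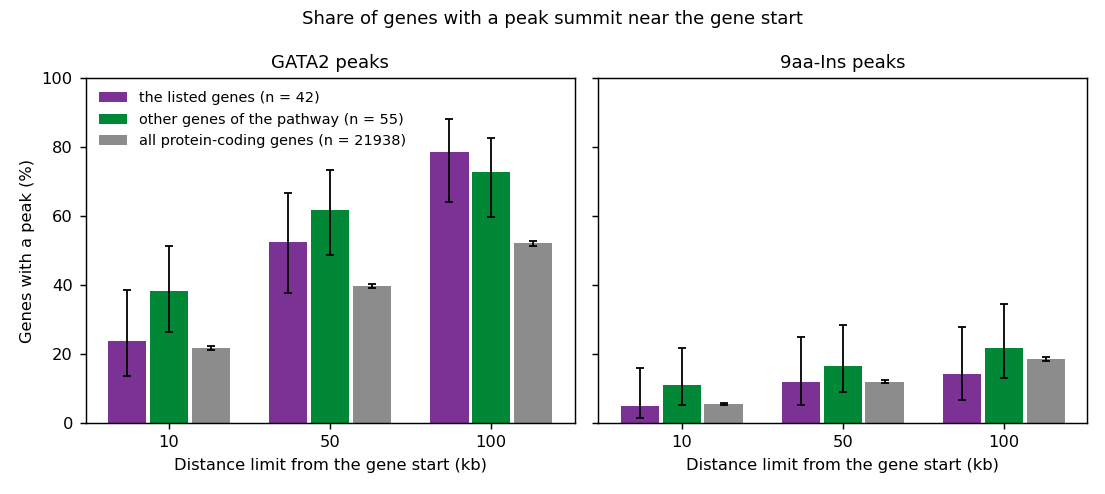
Share of genes with a GATA2 peak (left) or a 9aa-Ins peak (right) whose summit lies within 10, 50 or 100 kb of the gene start, for the 42 listed genes, 55 other genes of the pathway and all 21938 protein-coding genes. Bars are percentages and error bars Wilson 95% intervals. At 100 kb the listed genes reached 78.6% for GATA2, above the 52.1% of all genes, and 14.3% for 9aa-Ins, while at 10 kb they stood at 23.8% and 4.76%.

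The number of genes around a gene moved with these counts. The 33 genes with a GATA2 peak had a median of 4 other protein-coding gene starts within 100 kb (0 to 12), and the 9 without had a median of 1 (0 to 3). Over all protein-coding genes these medians were 5 and 2. Among the 23 listed genes with 0 to 3 such neighbours, 14 (60.9%) had a GATA2 peak, against 39.8% of all genes with as few neighbours. All 13 listed genes with 4 to 7 neighbours and all 6 with 8 or more had a peak, against 60.7% and 71.9% of all genes. The part of gene density in the share of 78.6% was not tested further.

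The 33 genes were linked to 63 different GATA2 peaks, of which 7 were linked to more than 1 of the genes. Of the 42 genes, 14 had 1 peak, 7 had 2 and 12 had 3 or more, with a mean of 1.76 peaks per gene against 1.36 over all genes. Most of these peaks stood closer to some other gene: a listed gene was the nearest gene for 18 of the 63 peaks (28.6%), and 25 peaks (39.7%) were at the promoter of a gene outside the list. Promoters (2 kb upstream to 100 bp downstream of a protein-coding transcript start) held 34 of the 63 peaks (54.0%, against 50.4% of the whole GATA2 list), and 9 of these were promoters of a listed gene. Introns held 17 peaks, exons outside promoters 3, and 9 were intergenic. Of the 42 genes, 15 (35.7%, 95% CI 23 to 50.8) were the nearest gene to at least 1 linked GATA2 peak, against 20.3% of all protein-coding genes.

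The motif was present within 100 bp of 22 of the 63 summits (34.9%, 95% CI 24.3 to 47.2), against 30.3% of the whole GATA2 list. Equally long windows placed 2 kb to each side of the 63 summits had it in 23.0% of cases, against 29.9% beside all GATA2 peaks. Outside promoters, 15 of 29 linked peaks had the motif (51.7%, against 47.0% of the list, and 24.1% and 29.8% in the flanking windows), and at promoters 7 of 34 had it (20.6%, against 13.9% of the list, and 22.1% and 30.1% in the flanking windows). By gene, 20 of the 42 (47.6%, 95% CI 33.4 to 62.3) had a motif-bearing GATA2 peak within 100 kb, against 23.5% of all genes. A motif match is a description of the letters under a peak and does not show which factor sat there.

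Some linked peaks that carry the motif are shown here, most of them the nearest or the highest motif-bearing peak of a gene, and for Il9r both of its motif-bearing peaks, because they let the letters under the signal be read beside its height. Each line is the plus strand of mm10, read from the GRCm38.p6 reference, with WGATAR in capitals. Where the motif is on the minus strand, the capitals hold TATC, the reverse complement of GATA. Bases annotated as untranslated were left out.
Il9r promoter, chr11:32200283-32200331: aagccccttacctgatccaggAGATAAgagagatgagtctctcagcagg
Il9r intron, chr11:32196265-32196325: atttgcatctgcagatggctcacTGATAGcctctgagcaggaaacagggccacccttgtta
Il2rb, in Rac2, chr15:78571785-78571833: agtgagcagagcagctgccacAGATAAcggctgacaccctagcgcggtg
Il2rg, in Snx12, chrX:101222309-101222357: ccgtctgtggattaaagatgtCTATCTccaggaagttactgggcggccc
Il4ra and Il21r, intergenic, chr7:125516883-125516931: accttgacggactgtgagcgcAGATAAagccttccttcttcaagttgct
Il7r, in Capsl, chr15:9463802-9463850: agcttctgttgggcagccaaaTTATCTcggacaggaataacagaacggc
Csf3r, at Stk40, chr4:126103830-126103878: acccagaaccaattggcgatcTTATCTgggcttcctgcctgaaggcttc
Il10ra, upstream, chr9:45274370-45274418: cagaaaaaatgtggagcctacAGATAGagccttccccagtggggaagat
Il18rap and Il18r1, intergenic, chr1:40501681-40501729: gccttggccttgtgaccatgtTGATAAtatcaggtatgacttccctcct
Jak1 intron, chr4:101192714-101192762: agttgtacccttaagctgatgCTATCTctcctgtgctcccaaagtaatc
Jak2, upstream, chr19:29241619-29241667: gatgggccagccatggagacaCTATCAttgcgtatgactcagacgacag
Jak3, at Pgls, chr8:71591776-71591824: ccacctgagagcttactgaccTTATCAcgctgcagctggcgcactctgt
Stat2, in Cs, chr10:128345105-128345153: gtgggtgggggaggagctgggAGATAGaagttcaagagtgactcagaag
Stat6, in Lrp1, chr10:127604557-127604605: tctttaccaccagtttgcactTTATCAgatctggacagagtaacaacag

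Other motifs stood in the linked windows at shares close to those of the whole list. The RUNX word TGTGGT was in 15.9% of the 63 windows against 16.2% of the list, the ETS word CGGAAG in 14.3% against 15%, the PU.1 word GAGGAAG in 11.1% against 11.9%, and the STAT word TTCNNNGAA in 3.17% against 3.84%, on either strand. The E-box CANNTG, a word bound by basic helix-loop-helix factors, was in 52.4% against 53.9%. An E-box followed by WGATAR after 6 to 14 bases, counted on either strand, was in 2 of the 63 windows (3.17%, against 3.01% of the list), beside Il2rb and in the intron of Il9r.

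**Figure D2:**
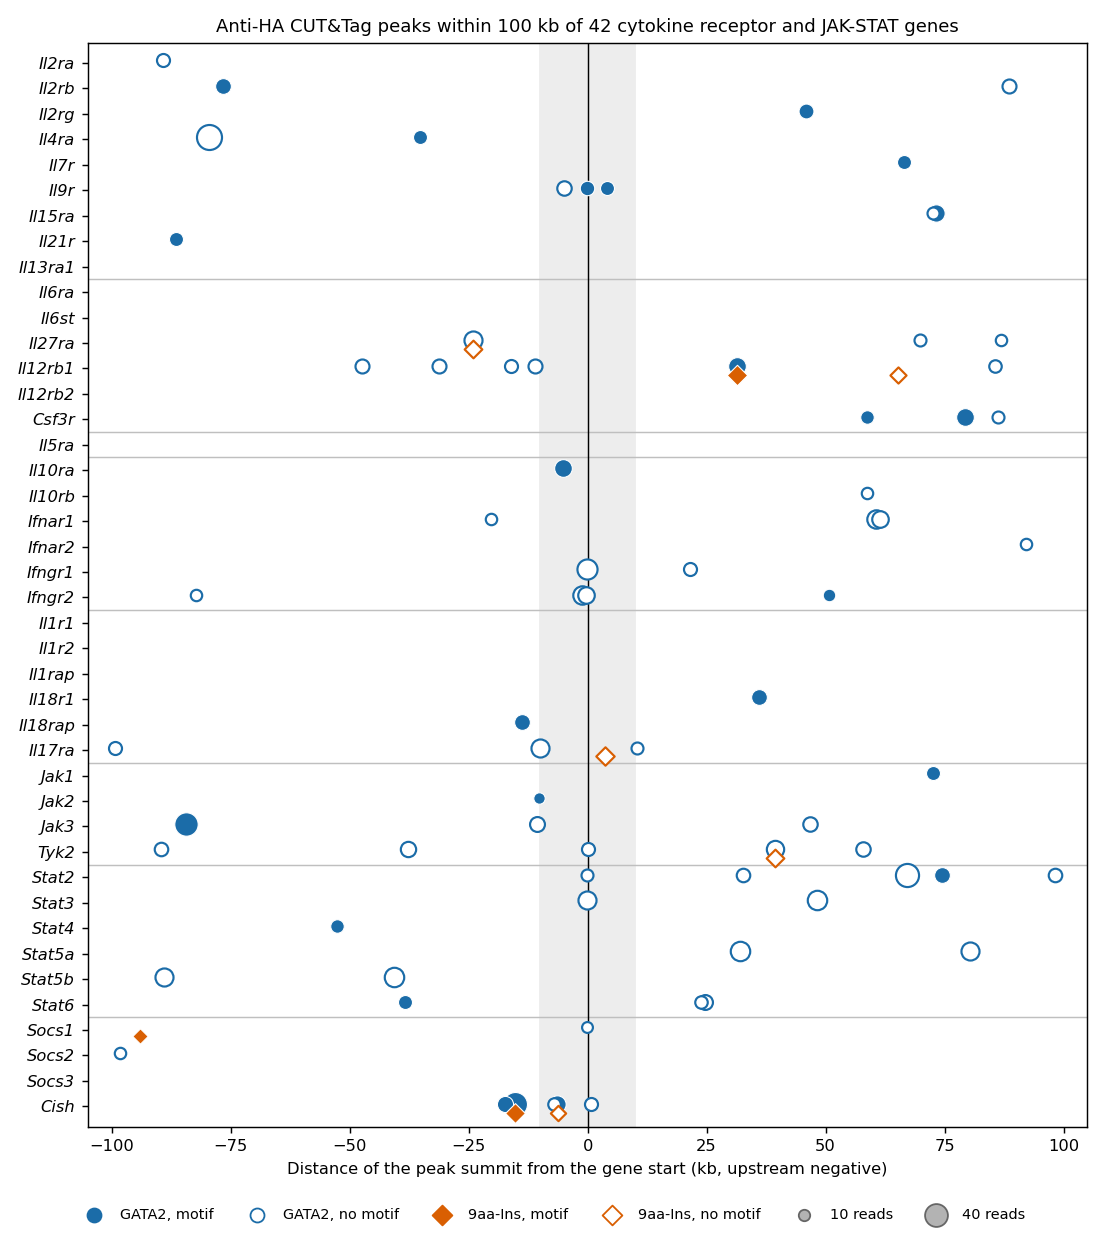
Distance of each linked peak summit from the start of each of the 42 genes, in kb with upstream negative, for GATA2 peaks (circles) and 9aa-Ins peaks (diamonds). Symbol size gives the pileup in reads, filled symbols have WGATAR within 100 bp of the summit, the shaded band spans 10 kb to each side, and horizontal lines separate the roles. Of the 42 genes, 10 have a GATA2 peak in the shaded band and 9 rows are empty.

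The receptors of the common gamma chain family carry the signals of IL-2, IL-4, IL-7, IL-9, IL-15 and IL-21, and Il2rg encodes the chain they share. Of the 9 genes in this group, which was taken to include Il13ra1, 8 had a GATA2 peak, against 52.1% of all protein-coding genes. None had a 9aa-Ins peak, against 18.6% of all, and 7 of the group's 12 peaks had WGATAR, against 30.3% of the whole GATA2 list. Il9r (ENSMUSG00000020279.10, chromosome 11, 32187541 to 32200279, minus strand), the subunit specific to IL-9, was the only one of the 9 with peaks within 10 kb, and it had 3. The nearest, at 32200102 to 32200536, had its summit 109 bp upstream of the gene start, 16 reads and AGATAA (shown above). Another, 3.98 kb downstream of the start in an intron, had 15 reads and 4 WGATAR words, 2 of them within 100 bp of the summit, and the last, 4.97 kb upstream at the promoter of Snrnp25, had 16 reads.

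The other peaks of this group were distant. Il4ra (ENSMUSG00000030748.9), the subunit common to the IL-4 and IL-13 receptors, was linked to the highest pileup of all 63 peaks. This peak, at 125472053 to 125472839 on chromosome 7, lay 79.6 kb upstream of Il4ra in an intron of Nsmce1 and had 48 reads (exact Poisson 95% CI 35.4 to 63.6), a fold enrichment of 33.5, and 4 WGATAR words, none of them within 100 bp of the summit. The peak nearest to Il4ra, 35.2 kb upstream with 15 reads and AGATAA, was also the single peak of Il21r, the IL-21 receptor gene, 86.5 kb upstream of that gene.

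Il2ra, the high-affinity IL-2 receptor subunit, had 1 peak of 13 reads, 89.1 kb upstream and 373 bp into Pfkfb3. Il2rb, the signalling chain of the IL-2 and IL-15 receptors, had a peak of 19 reads 76.6 kb upstream in an intron of Rac2 and a peak of 15 reads 88.6 kb downstream at the promoters of Mpst and Tst. Il2rg had 1 peak of 17 reads 45.9 kb downstream in an exon of Snx12. These peaks lay nearest to the genes that held them, not to the receptor genes. Il7r, which early lymphoid cells depend on, had 1 peak of 15 reads 66.4 kb downstream in an intron of Capsl, with AGATAA and the STAT word TTCNNNGAA in its window. Il15ra had peaks of 11 and 23 reads at 72.6 and 73.2 kb downstream, both at the promoters of Ankrd16 and Fbh1, and the higher had TGATAG. Il13ra1, which pairs with the Il4ra chain rather than with the common gamma chain, was counted in this group. It was the gene of the group without a peak of either list, and its nearest GATA2 peak was 486 kb away.

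The gp130 and IL-12 family receptors were split. Il6ra and Il6st, the subunits of the IL-6 receptor (Il6st encodes gp130), and Il12rb2 had no peak of either list within 100 kb. The nearest GATA2 peak lay 139 kb from the start of Il6ra with 13 reads, and 667 kb from that of Il6st with 17 reads. A 9aa-Ins peak of 11 reads lay at the same rounded distance of 139 kb from Il6ra. Sites of these genes under the calling threshold, or seen with the GATA2 antibody in libraries not used here, would not appear in these lists. Il12rb2 missed the limit narrowly, with a peak of 13 reads in each list 109 kb away, nearest to Serbp1.

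Il12rb1 (ENSMUSG00000000791.9), the subunit shared by the IL-12 and IL-23 receptors, had the most linked peaks of the 42 genes, 6 of GATA2 and 2 of 9aa-Ins, and it was the nearest gene to none of them. It also had 12 neighbouring gene starts within 100 kb, the highest number among the 42, reached also by Il27ra and Stat2. All 6 GATA2 peaks were at promoters of other genes, Mpv17l2, Pik3r2, Mast3 (2 peaks), Arrdc2 and Slc5a5, with 12 to 24 reads. The nearest was 11.1 kb upstream at Mast3 with 15 reads, and the highest 31.4 kb downstream at Arrdc2. Il27ra had 3 GATA2 peaks of 10 to 25 reads, the nearest and highest of them 24 kb upstream at the promoter of Rfx1. Csf3r, the G-CSF receptor gene that drives neutrophil production, had 3 peaks downstream. The nearest, at 58.6 kb in an intron of Oscp1, had 14 reads and AGATAA, and the highest, at 79.3 kb at the promoter of Stk40, had 24 reads and AGATAA. Il5ra, the IL-5 receptor subunit of the common beta chain family, had no peak of either list in reach, and its nearest GATA2 peak was 1464 kb away.

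All 6 IL-10 and interferon receptor genes had a GATA2 peak, against 52.1% of all protein-coding genes, and none had a 9aa-Ins peak, against 18.6%. Of their 7 peaks, 2 had WGATAR. Ifngr1 (ENSMUSG00000020009.13), the ligand-binding chain of the interferon gamma receptor, had a peak at its promoter, chromosome 10, 19591493 to 19592281, 172 bp upstream of the start with 31 reads (95% CI 21.1 to 44), and a weaker one of 13 reads 21.6 kb downstream, nearest to Il22ra2. Ifngr2 (ENSMUSG00000022965.8), the partner chain, had 2 peaks at its promoter, 329 bp and 1.2 kb upstream, with 21 and 26 reads. None of these 3 promoter peaks had WGATAR in the 100 bp around the summit. Il10ra (ENSMUSG00000032089.16), the ligand-binding IL-10 receptor chain, had 1 peak at 45274117 to 45274515 on chromosome 9, 5.19 kb upstream in intergenic sequence, with 24 reads and AGATAG.

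Ifnar2, Il10rb, Ifnar1 and Ifngr2 lie in a row on chromosome 16 and therefore shared peaks. Their starts were 33.4 kb (Ifnar2 to Il10rb), 79.1 kb (Il10rb to Ifnar1) and 61.8 kb (Ifnar1 to Ifngr2) apart. A peak of 10 reads (95% CI 4.8 to 18.4), 20.3 kb upstream of Ifnar1, was linked to all 4 genes and was the only peak of Il10rb and of Ifnar2. Ifnar1 reached the 2 Ifngr2 promoter peaks at 60.6 and 61.5 kb. Ifngr2 also had a peak of 12 reads 50.7 kb downstream at the promoter of Tmem50b, with AGATAG. For Il10rb and Ifnar2 the link thus rested on 1 peak near the lowest pileup that was called.

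Of the 6 receptor genes for IL-1, IL-18 and IL-17, Il1r1, Il1r2 and Il1rap had no peak of either list within 100 kb, and their nearest GATA2 peaks were 277, 319 and 2430 kb away. Il18r1 and Il18rap, the subunits of the IL-18 receptor, shared 1 intergenic peak of 19 reads with TGATAA, 36.1 kb downstream of the start of Il18r1 and 13.7 kb upstream of that of Il18rap. Il17ra (ENSMUSG00000002897.5), the common subunit of IL-17 receptors, had GATA2 peaks 9.98 kb upstream (25 reads), 10.3 kb downstream in its own intron (11 reads) and 99.2 kb upstream at the promoter of Kdm5a (13 reads). None of the 3 had WGATAR within 100 bp of the summit. It was also the only one of the 42 genes nearest to a 9aa-Ins peak, described with the 9aa-Ins peaks below.

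All 4 Janus kinase genes had GATA2 peaks, against 52.1% of all protein-coding genes. Jak1, used by most of these receptors, had 1 peak of 15 reads, 72.5 kb downstream of its start in its own intron with AGATAG. Jak2, the kinase of the common beta chain receptors, had 1 peak of 10 reads, 10.1 kb upstream with TGATAG. The high peak among the kinases belonged to Jak3, the partner of the common gamma chain: 42 reads (95% CI 30.3 to 56.8) at 71591449 to 71592383 on chromosome 8, 84.4 kb upstream of Jak3 at the promoter of Pgls, with TGATAA. Its nearest peak, 10.5 kb upstream in an intron of Unc13a, had 17 reads, and the last, 46.8 kb downstream at a promoter of Fcho1, had 16 reads. Tyk2 (ENSMUSG00000032175.11), the kinase of interferon and IL-12 receptors, was the only kinase gene with a peak within 10 kb. That peak lay 14 bp from the gene start, at 21131078 to 21131477 on chromosome 9, and had 13 reads. Tyk2 had 4 more peaks of 14 to 23 reads, 37.8 to 89.7 kb away, and none of its 5 peaks had WGATAR in the summit window.

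All 6 STAT genes had GATA2 peaks and none had a 9aa-Ins peak within 100 kb, against 52.1% and 18.6% of all protein-coding genes. Stat3 (ENSMUSG00000004040.16), activated by IL-6 and G-CSF, had a peak 110 bp upstream of its start, at 100939276 to 100939945 on chromosome 11, with 25 reads (95% CI 16.2 to 36.9). A peak of 29 reads in an intron of Stat3, 48.2 kb downstream of the start, lay nearest to Stat5a. Both peaks were within 100 kb of Stat5a and of Stat5b, the paired factors used by IL-2, IL-3 and erythropoietin, whose starts are 8.63 kb apart, and these were the only peaks of Stat5a and Stat5b. Neither had WGATAR within 100 bp of its summit, and the intronic peak had 2 such words farther out.

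Stat2 (ENSMUSG00000040033.16), the factor specific to type I and III interferons, had a peak of 11 reads 84 bp upstream of its start, at 128270429 to 128270766 on chromosome 10. Its highest peak had 41 reads (95% CI 29.4 to 55.6), 67.2 kb downstream at the promoter of Cs, the citrate synthase gene. Its other 3 peaks had 14 to 19 reads, and the one 74.5 kb downstream in an intron of Cs had AGATAG (shown above). Stat4, used by IL-12, had 1 peak of 14 reads 52.7 kb upstream with AGATAA. Stat6, used by IL-4, had its nearest peak 23.8 kb downstream with 12 reads at the promoters of Nab2 and Nemp1, its highest 24.8 kb downstream at Nab2 with 17 reads, and a peak of 15 reads with TGATAA 38.4 kb upstream in an intron of Lrp1.

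**Figure D3:**
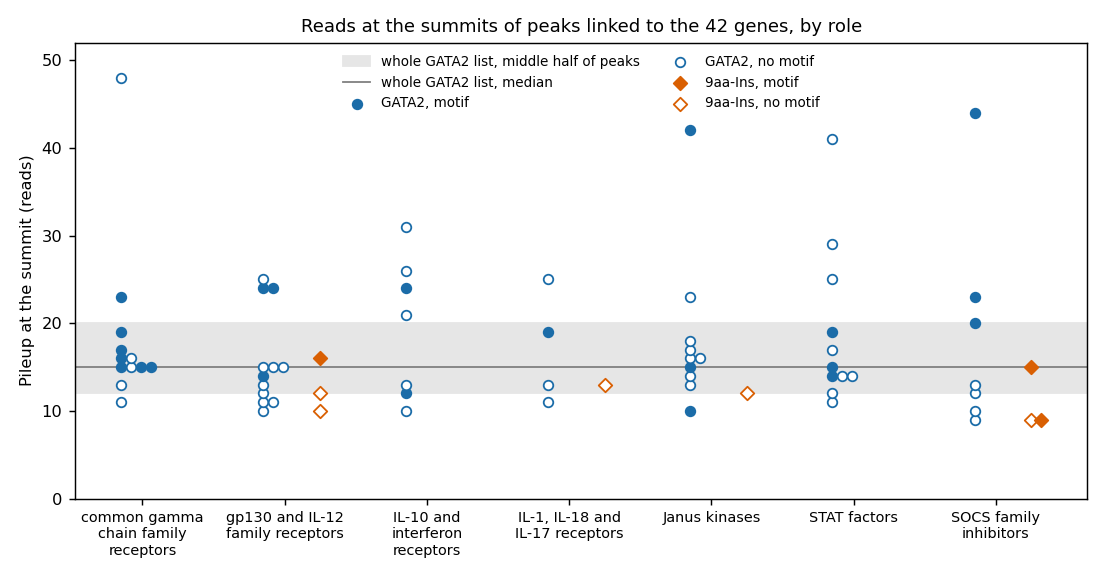
Reads at the summit of each linked peak, grouped by the role of the linked gene, for GATA2 (circles) and 9aa-Ins (diamonds). Filled symbols have WGATAR within 100 bp, the grey line is the median of the whole GATA2 list (15 reads) and the grey band its middle range (12 to 20 reads). Most linked peaks sit in or near the band, and the highest are the 48 reads near Il4ra, 44 near Cish, 42 near Jak3 and 41 near Stat2.

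The linked peaks had pileups like those of the whole list. Their median pileup was 15 reads (middle range 13 to 22, lowest 9, highest 48), as in the whole GATA2 list (15 reads, 12 to 20), and the median fold enrichment was 10.9 in both. The 22 linked peaks with WGATAR had a median of 18 reads and the 41 without had 14. The highest 4 were all far from the listed gene start, at 15.2 to 84.4 kb, and in or at a gene outside the list.

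The SOCS family genes encode the feedback inhibitors of the pathway, and Cish is a standard target of STAT5. Cish (ENSMUSG00000032578.7, chromosome 9, 107296026 to 107302784, plus strand) had 5 GATA2 peaks and 2 9aa-Ins peaks within 17.3 kb of its start, and 4 of the 5 lay in or at the neighbouring gene Mapkapk3, which encodes a kinase downstream of p38. The peak at Cish itself, at 107296600 to 107296775 with its summit 641 bp downstream of the start, had 13 reads, no WGATAR and the STAT word TTCNNNGAA. The highest, at 107280132 to 107281606 and 15.2 kb upstream, had 44 reads (95% CI 32 to 59.1) and TGATAA. A peak of 20 reads 17.3 kb upstream had TGATAG, and a peak of 23 reads 6.32 kb upstream, at the Mapkapk3 promoter, had AGATAG. Thus 3 of the 5 peaks had the motif, all 3 on the Mapkapk3 side.

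Socs1 (ENSMUSG00000038037.5), the inhibitor of interferon gamma signalling, had a GATA2 peak at its promoter, 220 bp upstream of the start, with 9 reads (95% CI 4.12 to 17.1), the lowest pileup called in the list. Socs2 had 1 peak of 10 reads, 98.2 kb upstream at the edge of the window and 188 bp into Ube2n. Socs3, which restrains gp130 signalling, had none in either list, and its nearest GATA2 peak was 138 kb away.

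**Figure D4:**
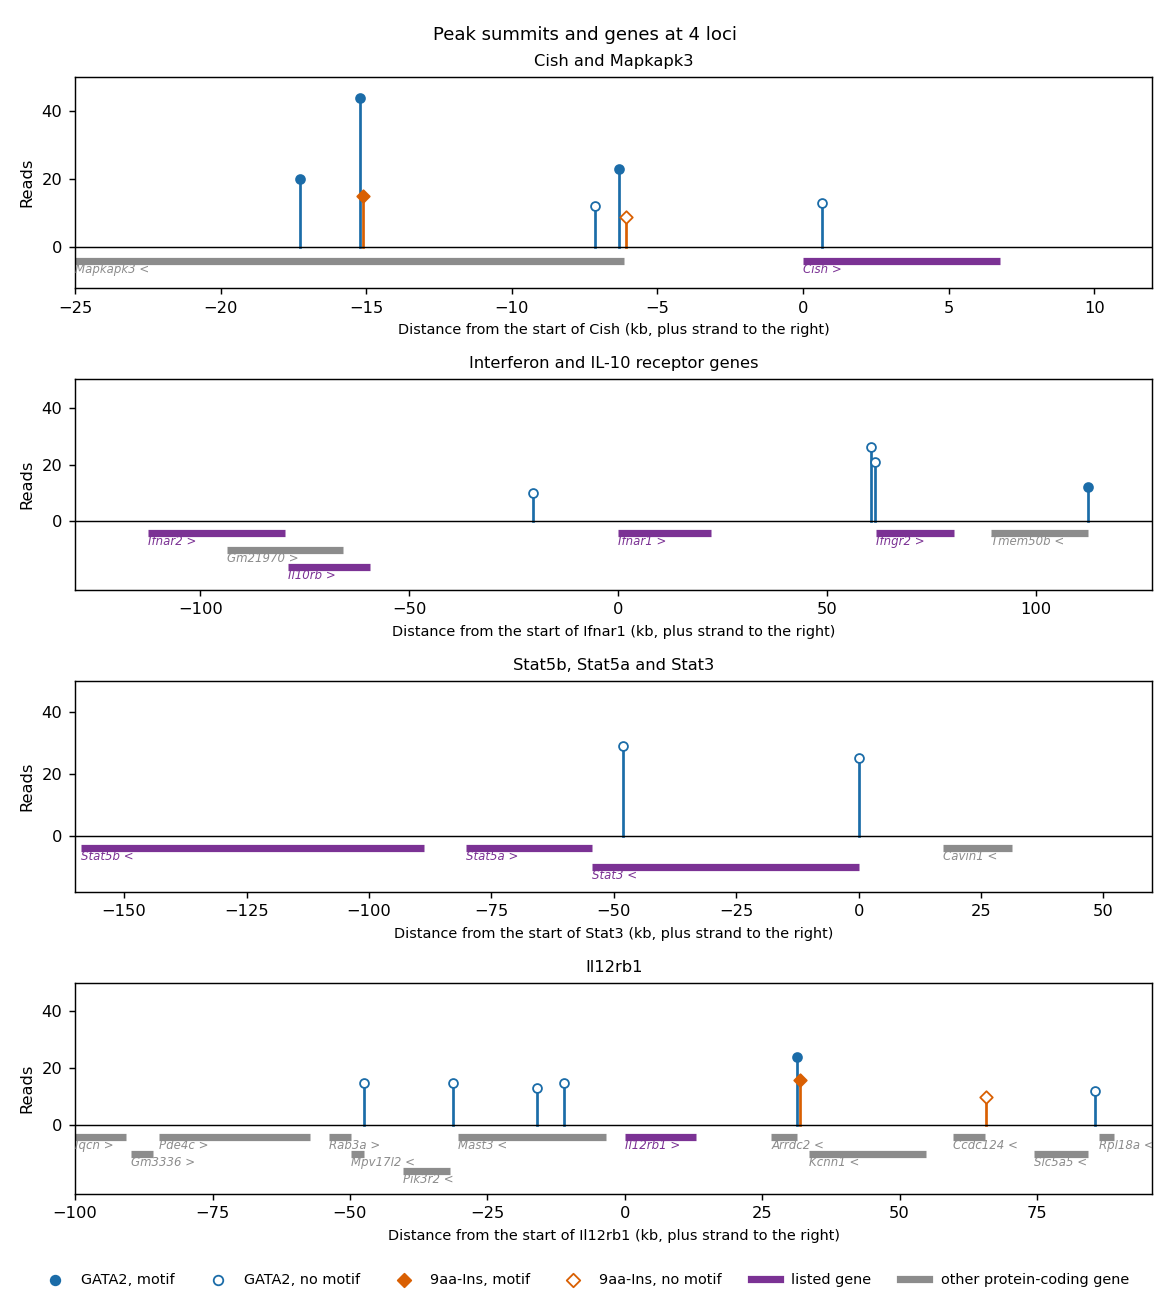
Genes and peak summits around Cish, the interferon and IL-10 receptor genes of chromosome 16, the Stat5b, Stat5a and Stat3 genes, and Il12rb1, with distance in kb from the start of the named gene. Stem height is the pileup in reads, circles are GATA2 and diamonds 9aa-Ins (drawn slightly to the right), filled symbols have WGATAR, and > or < after a name gives the strand. The Cish peaks cluster over Mapkapk3, the highest with 44 reads, and the 6 GATA2 peaks around Il12rb1 stand at other genes.

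Of the linked sites, 5 of the 63 GATA2 peaks shared at least 1 bp with a peak of 9aa-Ins (7.94%, 95% CI 3.44 to 17.3), against 15.3% of the whole GATA2 list. Among linked peaks within 50 kb the share was 12.8%. By gene, 4 of the 42 (9.52%, 95% CI 3.77 to 22.1) had such a shared peak within 100 kb, against 17.1% of all protein-coding genes. The shared sites were among the higher linked peaks: 23 to 44 GATA2 reads with a median of 24, against a median of 15 for the 58 linked peaks found only with GATA2. For 24 of these 58, the lower Poisson bound of the GATA2 pileup was at or above 9 reads, the lowest pileup called in the 9aa-Ins list, and for the other 34 it was below. A peak missing from the 9aa-Ins list says that 9aa-Ins stayed under the calling threshold, and the number of reads it had there is not given.

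All 5 shared sites had more GATA2 reads than 9aa-Ins reads. At the site in an exon of Mapkapk3, 15.2 kb upstream of Cish, GATA2 had 44 reads and 9aa-Ins 15 reads with their summits on the same base, a ratio of 2.93 (exact 95% CI 1.6 to 5.67). At the Mapkapk3 promoter, 6.32 kb upstream of Cish, they had 23 and 9 reads, a ratio of 2.56 (95% CI 1.14 to 6.28). Both of these sites and the next had WGATAR near the GATA2 summit. At the Arrdc2 promoter, 31.4 kb downstream of Il12rb1, they had 24 and 16 reads, a ratio of 1.5 (95% CI 0.764 to 3.02). At the Rfx1 promoter, 24 kb upstream of Il27ra, they had 25 and 12 reads (2.08, 95% CI 1.01 to 4.55), and at the start of Raver1, 39.3 kb downstream of Tyk2, 23 and 12 reads (1.92, 95% CI 0.915 to 4.23), both without the motif. These intervals cover counting error only, with the libraries of each group merged and their sizes unknown, and are no test between the groups.

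WGATAR lay near 3 of the 5 shared linked summits, against 13.5% of all shared GATA2 peaks, and near 19 of the 58 GATA2-only linked summits (32.8%, against 33.3%). With 5 sites the share of shared peaks is poorly fixed. The letters at 3 of the 5 shared sites and at 2 of the 3 9aa-Ins peaks that no GATA2 peak overlapped are given for comparison, on the plus strand with WGATAR in capitals.
Cish, exon of Mapkapk3, both lists, chr9:107280731-107280779: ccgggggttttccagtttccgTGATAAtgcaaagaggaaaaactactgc
Il12rb1, at Arrdc2, both lists, chr8:70839787-70839835: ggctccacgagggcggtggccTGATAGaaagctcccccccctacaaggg
Il27ra, at Rfx1, GATA2 summit, chr8:84066530-84066590: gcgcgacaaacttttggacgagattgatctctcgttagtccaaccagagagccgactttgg
Il27ra, at Rfx1, 9aa-Ins summit, chr8:84066648-84066708: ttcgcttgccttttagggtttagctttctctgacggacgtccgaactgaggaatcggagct
Il17ra intron, 9aa-Ins only, chr6:120466969-120467029: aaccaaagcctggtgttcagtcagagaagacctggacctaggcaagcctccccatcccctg
Socs1, in Rmi2, 9aa-Ins only, chr16:10879555-10879603: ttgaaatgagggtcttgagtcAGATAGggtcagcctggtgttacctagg

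**Figure D5:**
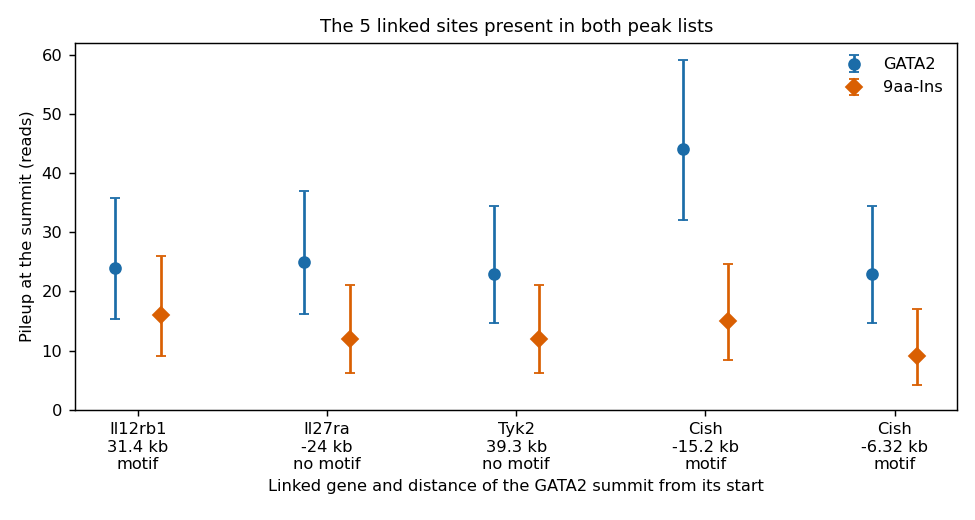
Pileup at the 5 linked sites present in both lists, with GATA2 as circles and 9aa-Ins as diamonds; error bars are exact Poisson 95% intervals. Sites are named by the linked gene and the distance of the GATA2 summit from its start, with the presence of WGATAR below. GATA2 ranges from 23 to 44 reads and 9aa-Ins from 9 to 16, and GATA2 is higher at each site.

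The 9aa-Ins list gave 8 linked peaks of 9 to 16 reads with a median of 12, of which 5 overlapped a GATA2 peak (62.5%, 95% CI 30.6 to 86.3, against 88% of the whole 9aa-Ins list) and 3 did not. Inside Il17ra, at 120466862 to 120467058 on chromosome 6, a 9aa-Ins peak of 13 reads (95% CI 6.92 to 22.2) lay in an intron 3.75 kb downstream of the start, between the GATA2 peaks 9.98 kb upstream and 10.3 kb downstream, and it had no WGATAR. A peak of 10 reads lay at the promoter of Ccdc124, 65.1 kb downstream of Il12rb1. A peak of 9 reads with AGATAG lay in an intron of Rmi2, 94 kb upstream of Socs1. All 3 were within a few reads of the calling threshold, and the GATA2 reads at these places are not given.

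The limit of 100 kb set several links. Just inside it were Il17ra (99.2 kb), Stat2 and Socs2 (98.2 kb each), Ifnar2 (92.1 kb) and, with 9aa-Ins, Socs1 (94 kb). Just outside were further peaks of Ifngr2 (13 reads, beyond 100 kb by less than the rounding), Tyk2 (102 kb), Il2rb (103 kb), Il4ra (107 kb), Il12rb2 (109 kb) and Il12rb1 (110 kb, 32 GATA2 reads and 34 9aa-Ins reads near Jund). For Socs2 and Ifnar2 these were the only GATA2 peaks, so a limit of 90 kb would leave both without one, and a limit of 110 kb would add Il12rb2.

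A wider list of 55 further genes of the pathway was counted the same way. GATA2 peaks lay within 100 kb of 40 (72.7%, 95% CI 59.8 to 82.7), against 52.1% of all genes. 9aa-Ins peaks lay within 100 kb of 12 (21.8%, 95% CI 12.9 to 34.4), near the 18.6% of all genes, which lay inside the interval. Within 10 kb, 21 (38.2%, 95% CI 26.5 to 51.4) had a GATA2 peak, against 21.7% of all genes, and 6 (10.9%, 95% CI 5.10 to 21.8) had a 9aa-Ins peak, against 5.53%, which also lay inside the interval. The 21 were the receptor genes Csf2ra, Csf2rb, Il3ra, Epor, Il22ra2 and Crlf2, the inhibitors and adaptors Socs4, Socs5, Pias3, Pias4, Ptpn2, Ptpn6, Sh2b3, Stam, Cbl and Grb2, and the STAT target genes Pim1, Bcl2l1, Mcl1, Myc and Irf1. Within 10 kb of the start, the highest pileups were 36 reads 4.38 kb upstream of Grb2, an adaptor of receptor tyrosine kinases, 35 reads 2.21 kb upstream of Ptpn6, which encodes the phosphatase SHP-1, and 32 reads at the Myc start. The 6 with a 9aa-Ins peak were Csf2ra, Epor, Ptpn2, Sh2b3, Mcl1 and Myc, each with 12 or 13 reads and each overlapping a GATA2 peak. Of the 55, 16 (29.1%, 95% CI 18.8 to 42.1) had a motif-bearing GATA2 peak within 100 kb, near the 23.5% of all genes, which lay inside the interval.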

How the data were processed

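CUT&Tag reads were, per the authors, aligned to mm10 with Bowtie2, freed of duplicates and blacklisted regions, and called with MACS3 (versions not given in the sources used here) at a q-value of 1e-06. The deposited peak lists hold, per peak, a score (10 times the −log10 q-value), the fold enrichment (a ratio of summit pileup to background, each plus 1), the −log10 p-value, the −log10 q-value and the summit. Libraries made with the GATA2 antibody are left out, and 0 columns of other samples were present. Library sizes are unknown.

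Gene starts were taken from GENCODE M21, and sequence and RefSeq promoters from GRCm38.p6, the assembly of mm10. Whole pileups were recovered by finding the background at which all fold enrichments gave whole reads (largest deviation 6.42e-04) and checked against the deposited p-values (largest difference in −log10 p-value 5.19e-04). Motifs were counted within 100 bp of the summit on both strands. Shares of genes and of peaks have Wilson 95% intervals, pileups exact Poisson intervals, and ratios of pileups exact binomial intervals (Python 3.11.15, SciPy 1.17.1). Scripts were tested on simulated data.

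With 1 merged list per group no test between groups was possible, so counts were set beside all protein-coding genes or the whole list. Every listed gene is accounted for, with its nearest and its highest peak. Genes outside the list are named where they hold or lie nearest to a linked peak (1 such gene is not reported here), and of the other pathway genes those with a peak within 10 kb. The genes, the pathway list and the rules were chosen with earlier results of these data known. Alternatives were the distance (10 or 50 kb), a q-value of 1e-10, all transcript starts, nearest gene only, the overlap rule, the motif window and the promoter width.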

Additional observations from a re-analysis of the deposited data

How the results depend on the processing

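Of 47 alternative values, 30 kept their value within the interval or within 1.5 times of the reported count and 17 moved. The fall from 33 to 22 listed genes with a GATA2 peak at 50 kb lay on the limit of 1.5 times and was counted as kept. The distance and the linking rule had the largest reach, by construction, since both remove peaks. Listed genes with a GATA2 peak fell from 33 to 10 at 10 kb and to 15 when a peak counted only for its nearest gene, and those with a 9aa-Ins peak from 6 to 2 and to 1. Other pathway genes with a GATA2 peak fell from 40 to 21 and to 26, and with a 9aa-Ins peak from 12 to 6 and to 5. Linked GATA2 peaks fell from 63 to 15 at 10 kb, 39 at 50 kb and 18 with the nearest gene only, and linked 9aa-Ins peaks from 8 to 2 at 10 kb, 5 at a q-value of 1e-10 and 1 with the nearest gene only. The share with WGATAR was 19% with the motif within 50 bp of the summit and 47.6% anywhere in the peak, and the share at promoters was 73.3% at 10 kb. The share of linked GATA2 peaks that were shared stayed within its interval of 3.44 to 17.3% under the alternatives tried, from 6.35% with reciprocal overlap to 12.8% at 50 kb, against 7.94% as reported. The median fold enrichment was 11.6 under each alternative tried, against 10.9.

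No paired analysis was possible because each group has a single merged list, whose peaks carry no replicate numbers. For the same reason no replicate was left out. Peaks start at 9 reads, so weaker sites of either factor are not seen.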

Other observations

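The promoters of the listed genes were also read for motifs without regard to peaks. RefSeq promoters (250 bases before to 50 after a gene start) matched 35 of the 42 genes, with 42 promoters. WGATAR was in 7 of these (16.7%), against 29.8% of all 32817 RefSeq promoters. The RUNX word was in 21.4% against 16.8%, the ETS word in 11.9% against 16.9%, and the PU.1 word in 11.9% against 13.6%. The E-box was in 71.4% against 72.3%, and the E-box followed by WGATAR in 0 against 1.77%. Among the words read, WGATAR and the STAT word were furthest from the shares of all promoters. No interval was computed for these promoter shares. The STAT word TTCNNNGAA, on either strand, was in 8 (19.0%), against 8.29% of all, at Cish, Ifnar1, Ifnar2, Il12rb2, Il18r1, Il1r2, Il7r and Socs3. Of these 8 genes, Il12rb2, Il1r2 and Socs3 had no GATA2 or 9aa-Ins peak within 100 kb, and Cish was the only one with a GATA2 peak within 10 kb.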
